A study of Homo sapiens with 12 samples.

Results

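Transcripts of 7 chemokine genes, CXCL1, CXCL2, CXCL3, CXCL5, CXCL6, CXCL8 and CCL20, were followed over all 6 conditions of a study of 2 human cholangiocarcinoma cell lines. The genes were chosen by symbol and found in the deposited count table through their Ensembl identifiers, and all 7 were present among its 60651 rows. EGI-1 and HUCCT1 are established lines from bile duct cancers, carry no engineered change (the labels give the genotype as WT), and were plated in 6-well plates the day before treatment. EGI-1 cells were treated for 72 h with vehicle (DMSO), 0.5 µM decitabine, 200 nM talazoparib or both agents together, with 2 libraries in each arm. HUCCT1 cells were treated for 72 h with vehicle or 1 µM decitabine, again with 2 libraries in each arm. Decitabine is a nucleoside that is built into DNA and traps and depletes DNA methyltransferases, and talazoparib inhibits and traps the repair enzyme PARP on DNA. The dose of decitabine differed between the lines and so did a tag in the library names (L3 in HUCCT1, L4 in EGI-1), so that line, dose and tag cannot be told apart. Each group is 1 cell line, and nothing in the labels says that replicates came from separate cultures, so p-values measure the spread between these libraries only.

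CXCL1, CXCL2, CXCL3, CXCL5, CXCL6 and CXCL8 belong to the CXC chemokines that carry a glutamate-leucine-arginine motif before the first cysteines. They bind CXCR2, and CXCL6 and CXCL8 also bind CXCR1, receptors found above all on neutrophils, and draw those cells out of the blood. CXCL8 (interleukin-8) is the best known of them and has no mouse ortholog. CCL20 is a CC chemokine that binds CCR6 and attracts Th17 cells, B cells and immature dendritic cells. Epithelial cells, those of bile ducts among them, make these chemokines after interleukin-1, TNF or interleukin-17, largely through the transcription factor NF-κB, and their mRNAs are short-lived. The 6 CXC genes lie in 1 cluster on chromosome 4, while CCL20 lies on chromosome 2.

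In GENCODE 44 on GRCh38, the build named for the files, all 7 are protein-coding genes. CXCL8 (ENSG00000169429.11) lies at chr4:73740519-73743716, CXCL6 (ENSG00000124875.10) at chr4:73836640-73849064 and CXCL1 (ENSG00000163739.5) at chr4:73869393-73871308, all on the plus strand. CXCL5 (ENSG00000163735.7) lies at chr4:73995642-73998677, CXCL3 (ENSG00000163734.4) at chr4:74036589-74038807 and CXCL2 (ENSG00000081041.9) at chr4:74097040-74099196, all on the minus strand. CCL20 (ENSG00000115009.13) lies at chr2:227805739-227817564 on the plus strand. CXCL1, CXCL2 and CXCL3 are close paralogs, and 4.57%, 13.4% and 6.01% of their 50-base exonic windows also occur in another gene. For windows of 100 bases these shares were 0 in CXCL1, 5.34% in CXCL2 and 3.27% in CXCL3. CXCL5 overlaps a long non-coding RNA on the other strand (ENSG00000287037) and CXCL6 overlaps the pseudogene PPBPP1 on its own strand. CXCL8 and CCL20 shared no window of either length. How the counting treated such reads is not given in the sources used here.

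The promoters are shown because the 6 CXC genes share a stretch that very few other promoters hold. Each line gives 60 bases of the gene's own strand, from 110 to 51 bases before the RefSeq start site (GRCh38.p14), and capitals mark the match to an NF-κB motif.
CXCL8, chr4:73740459-73740518, plus strand: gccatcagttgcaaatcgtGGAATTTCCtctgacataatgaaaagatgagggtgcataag
CXCL6, chr4:73836568-73836627, plus strand: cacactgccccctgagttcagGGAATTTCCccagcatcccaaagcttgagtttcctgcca
CXCL1, chr4:73869283-73869342, plus strand: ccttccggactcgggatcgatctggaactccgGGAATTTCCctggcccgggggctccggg
CXCL5, chr4:73998728-73998787, minus strand: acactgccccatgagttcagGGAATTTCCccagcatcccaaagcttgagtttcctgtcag
CXCL3, chr4:74038740-74038799, minus strand: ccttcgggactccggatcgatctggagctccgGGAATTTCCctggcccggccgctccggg
CXCL2, chr4:74099246-74099305, minus strand: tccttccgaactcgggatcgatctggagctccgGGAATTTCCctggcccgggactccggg
CCL20, chr2:227813732-227813791, plus strand: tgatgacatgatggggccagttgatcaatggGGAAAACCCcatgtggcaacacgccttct
The letters GGAATTTCC were found in all 6 CXC promoters, on the gene's strand, starting between 91 (CXCL8) and 77 (CXCL2) bases before the start site. Over all 27305 RefSeq promoters of the same 300 bases (250 before and 50 after the start), 129 (0.472%) held these letters on either strand. The looser letters GGNNTTTCC, which include the stricter motif, were held by 6.26% of promoters. They occurred in all 7 promoters, in CCL20 on the opposite strand, and a second match starting 53 bases before the start site was present in CXCL1, CXCL2 and CXCL3. The AP-1 motif TGANTCA (7.76% of promoters) was found in CXCL8 only, and TATAAA (12% of promoters) in CXCL8 and CCL20. Matches describe letters in these windows and not bound sites.

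CpG dinucleotides, the sites that DNA methyltransferases modify, differed widely between the 7 promoters. The 300 bases of CXCL3, CXCL1 and CXCL2 held 24, 22 and 22 CpGs, those of CXCL5 and CXCL6 held 9 and 8, and those of CXCL8 and CCL20 held 4 and 3. The median over all RefSeq promoters was 14, and 66.3% of promoters held fewer than CXCL3 against 19% for CCL20. Any link between CpG content and the changes given below was not tested. The most and the least CpG-rich promoter are printed whole, with each CpG in capitals.
CXCL3, chr4:74038640-74038939, minus strand: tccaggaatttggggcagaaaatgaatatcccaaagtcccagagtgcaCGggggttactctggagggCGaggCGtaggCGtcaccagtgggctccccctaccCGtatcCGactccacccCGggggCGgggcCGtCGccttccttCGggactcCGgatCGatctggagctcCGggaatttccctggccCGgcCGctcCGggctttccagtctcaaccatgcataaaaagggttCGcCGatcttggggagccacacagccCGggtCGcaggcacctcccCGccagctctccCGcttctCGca
CCL20, chr2:227813592-227813891, plus strand: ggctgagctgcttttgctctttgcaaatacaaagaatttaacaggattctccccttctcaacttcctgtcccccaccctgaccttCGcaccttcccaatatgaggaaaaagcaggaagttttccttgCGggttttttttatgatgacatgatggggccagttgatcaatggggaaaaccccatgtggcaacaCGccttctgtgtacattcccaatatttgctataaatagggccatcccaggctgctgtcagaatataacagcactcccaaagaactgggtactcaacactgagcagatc
The RefSeq start of CCL20 lies inside the longer GENCODE gene. DNA methylation itself was not measured in the files used here.

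Sequencing depth, as the sum of counts in a library, ranged from 23139065 to 33181930 for EGI-1 and from 32519985 to 34965627 for HUCCT1. Levels are given as CPM, counts scaled to the library's total and its TMM factor. A bile duct epithelium list was well above background in every library, with all 7 of its 7 markers over 3 counts and a sum of 7981 to 14601 CPM. One library stood apart. In EGI-1 combination replicate 2, PTPRC, the common leukocyte antigen, had 381 counts and CD3E, a T cell receptor subunit, 148, against 1 to 7 and 0 to 4 counts in the other 7 EGI-1 libraries. The list of 6 leukocyte markers summed to 22.0 CPM there and to 2.92 to 4.95 CPM in the other 7 EGI-1 libraries. The neutrophil genes CSF3R and FCGR3B had 1 count each in that library. A list of 10 lymphocyte genes chosen after the values were seen had 1247 counts there, with all 10 over 3 counts, against 2 to 15 counts in each other EGI-1 library. Differences of the combination arm are therefore given with and without this library, and the part of these transcripts in them was not tested. In a bulk culture, more transcript per cell and more cells that carry it cannot be told apart.

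The comparison of decitabine with vehicle in HUCCT1 asked how a line described as relatively resistant to DNA methyltransferase inhibitors responds to decitabine alone. All 7 chemokine transcripts rose, between 21.7-fold and 96.0-fold. Together they went from 79.6 ± 2.38 CPM (SD, n = 2) under vehicle to 3315 ± 357 CPM (SD, n = 2) under decitabine. Of 22479 genes tested, 19.6% were called higher at an adjusted p under 0.05 (edgeR quasi-likelihood test, Benjamini-Hochberg adjustment), and the median log2 fold change was 6.15 over the 7 chemokines against 0.0020 over all genes. The 7 ranked between 298 and 597 by log2 fold change.

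CXCL8 stood at 17.5 and 15.5 CPM in the vehicle libraries and at 708 and 829 CPM in the decitabine libraries. CXCL1, first described as a melanoma growth factor, stood at 13.1 and 15.8 CPM under vehicle and at 905 and 1147 CPM under decitabine. The groups were far apart for both, with no treated library near a vehicle library. The log2 fold change was 5.54 (SE 0.14, edgeR adjusted p = 1.98e-20) for CXCL8 and 6.15 (SE 0.15, edgeR adjusted p = 1.98e-20) for CXCL1.

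CXCL3 went from 4.02 and 4.27 CPM to 278 and 346 CPM, a log2 fold change of 6.23 (SE 0.15, edgeR adjusted p = 1.98e-20). CXCL2, the member with the smallest rise, went from 9.12 and 13.05 CPM to 208 and 274 CPM, a log2 fold change of 4.44 (SE 0.17, edgeR adjusted p = 9.61e-13). The 3 close paralogs differed in the size of their rise, and their 95% intervals (5.84 to 6.46 for CXCL1, 5.92 to 6.55 for CXCL3, 4.08 to 4.81 for CXCL2) placed CXCL2 below the other two.

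CXCL5, an epithelial chemokine close in sequence to CXCL6, was already the most abundant of the 7 under vehicle by CPM, at 34.8 and 26.8 CPM, and reached 722 and 720 CPM. Its log2 fold change was 4.55 (SE 0.13, edgeR adjusted p = 7.78e-19). CXCL6 was near the foot of the scale under vehicle, with 42 counts in each library (1.26 and 1.25 CPM), and reached 109.4 and 131.8 CPM. With a log2 fold change of 6.58 (SE 0.17, edgeR adjusted p = 3.08e-20), it was the member with the largest fitted rise. The antisense neighbour of CXCL5 had 13 counts in all under vehicle and 91 under decitabine, against 2062 and 49478 for CXCL5 itself.

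CCL20, the only member outside the chromosome 4 cluster, rose as far as the cluster genes. It stood at 1.4995 and 1.2456 CPM under vehicle and at 133 and 119 CPM under decitabine, a log2 fold change of 6.52 (SE 0.16, edgeR adjusted p = 1.98e-20). Its interval (6.19 to 6.85) overlapped those of CXCL6, CXCL3 and CXCL1. In all 7 genes both decitabine libraries lay above both vehicle libraries, as did 33.9% of all genes tested, and the exact permutation p for 2 libraries against 2 cannot fall below 0.333. All 7 were called under every alternative tried. Markers of other cell types moved as well in HUCCT1. The sum of 5 fibroblast markers was 24.6 to 27.3 CPM under vehicle and 147 to 174 CPM under decitabine, with 2 and 4 of the 5 over 3 counts, COL3A1 at 0 to 2 counts throughout and DCN at 0 under vehicle. The sum of 3 endothelial markers was 3.68 to 4.98 CPM and 22.4 to 23.2 CPM, and the bile duct epithelium list went from 13178 to 14601 CPM to 7981 to 9148 CPM. The sum of the 6 leukocyte markers was 2.64 and 3.08 CPM under vehicle and 5.26 and 5.64 CPM under decitabine. ITGAM, a myeloid integrin chain, had 11 and 14 counts under vehicle and 51 and 52 under decitabine, CD14 had 73 and 83 against 114 and 107, and CD3E had 0 and 1 against 17 and 23. PTPRC had 3 or 4 counts and CSF3R 1 or 2 in every HUCCT1 library, and FCGR3B was at 0. The 10 lymphocyte genes had 4 and 2 counts in all under vehicle and 53 and 51 under decitabine, where 1 of the 10 was over 3 counts. The part of these lists in the chemokine result was not tested.

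**Figure D1:**
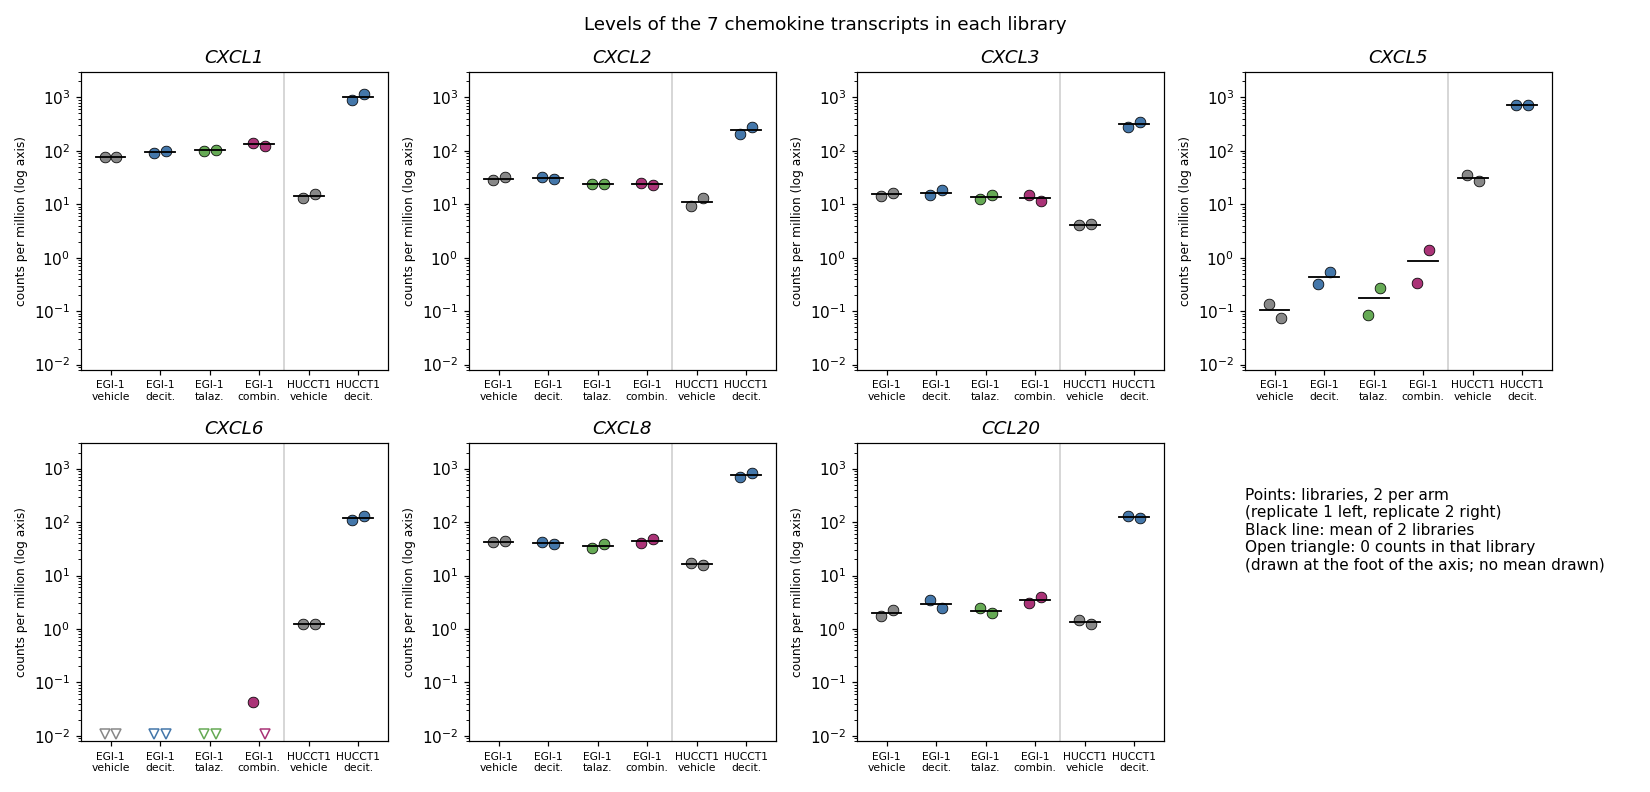
Levels of each of the 7 transcripts in CPM (log axis) by arm, with points for the 2 libraries of each arm, a line for their mean, and open triangles for libraries with 0 counts. Under decitabine all 7 sit far above vehicle in HUCCT1, while the 4 EGI-1 arms lie close together except for CXCL5, and CXCL6 has 1 count in all 8 EGI-1 libraries.

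The order of the transcripts differed between the arms of HUCCT1, as did their sum. Per kilobase of the canonical transcript, vehicle cells held most CXCL5 (12.6 CPM per kb), CXCL1 (12.3), CXCL8 (10.0) and CXCL2 (9.94), then CXCL3 (3.86), CCL20 (1.65) and CXCL6 (0.81). Among the first 4, the libraries of CXCL2 overlapped with those of each of the others and those of CXCL5 with those of CXCL1, so these neighbours did not differ beyond their spread. Decitabine-treated cells held most CXCL1 (874 CPM per kb) and CXCL8 (468), followed by CXCL5 (296) and CXCL3 (290), which overlapped, then CXCL2 (216), CCL20 (151) and CXCL6 (78.5). With the length of all exons in place of the canonical transcript, CXCL2 stood above CXCL8 in vehicle cells and above CXCL3 in treated cells. As a share of the summed CPM, CXCL5 went from 38.7% to 21.7% and CXCL1 from 18.2% to 31.0%, while CXCL8 held 20.7% and 23.2%.

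**Figure D2:**
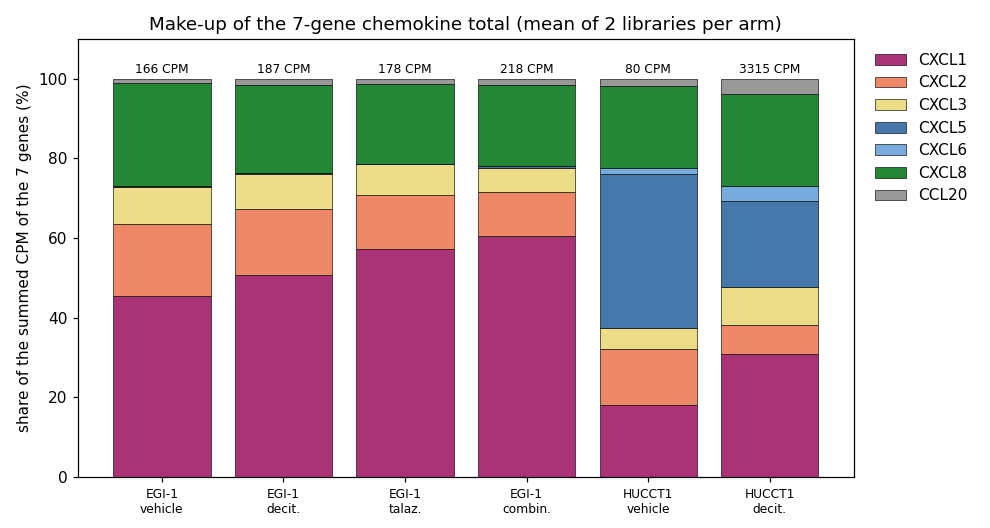
Share of the summed CPM of the 7 genes held by each gene (percent, mean of 2 libraries per arm), with the summed CPM above each bar. CXCL1 held 45.6% of the sum in EGI-1 vehicle and 60.4% in the combination, and CXCL5 held 38.7% in HUCCT1 vehicle but 0.064% in EGI-1 vehicle.

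In EGI-1 the order was another one, and it was nearly the same in all 4 arms. Vehicle cells held most CXCL1 (64.5 CPM per kb), then CXCL2 (26.9) and CXCL8 (26.2), whose libraries overlapped, then CXCL3 (14.4), CCL20 (2.38) and CXCL5 (0.044), with no CXCL6. In the combination CXCL1 stood at 112 CPM per kb, CXCL8 at 27.0, CXCL2 at 21.8, CXCL3 at 12.3, CCL20 at 4.14 and CXCL5 at 0.35. CXCL1 made up 45.6% of the summed CPM under vehicle, 50.6% under decitabine, 57.3% under talazoparib and 60.4% in the combination. In combination replicate 1 alone, the share was 62.4%.

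In EGI-1, the same agent at 0.5 µM left most of the 7 transcripts near vehicle. The single agents and the combination were each compared with vehicle to learn what PARP inhibition adds to decitabine in a line described as relatively resistant. CXCL6 was not tested in this line, since it had 1 count in 8 libraries. Decitabine called 0 of the 6 members tested, against 0.544% of all 22406 genes, by edgeR, with 3 members at an unadjusted p under 0.05 (CXCL1, CXCL5 and CCL20). DESeq2 called 1, CXCL1. CXCL1 stood at 75.6 and 75.9 CPM under vehicle and at 91.4 and 97.8 CPM under decitabine, a log2 difference of 0.32 (SE 0.08, edgeR adjusted p = 0.0737, DESeq2 adjusted p = 0.0245). Without decitabine replicate 1 the log2 difference of CXCL1 was 0.37. The decitabine libraries of CXCL1, CXCL5 and CCL20 lay above the vehicle libraries, as those of 20.2% of all genes did.

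Talazoparib called 1 of the 6 members, against 4.12% of all genes. CXCL1 reached 98.4 and 105 CPM, both above the vehicle libraries, and rose by 0.43 on the log2 scale (SE 0.08, edgeR adjusted p = 0.00222). The call was lost without either vehicle library (adjusted p = 0.0728 and 0.0652). It was also lost when the counts of CXCL1, CXCL2 and CXCL3 were summed (log2 difference 0.21, adjusted p = 0.142). CXCL2 stood at 24.4 and 23.9 CPM against 28.1 and 31.8 CPM under vehicle, a log2 difference of -0.31 (SE 0.09, edgeR adjusted p = 0.0795). CXCL8 stood at 32.7 and 39.1 CPM against 42.06 and 43.99 CPM, a log2 difference of -0.26 (SE 0.09, edgeR adjusted p = 0.163). For both, the talazoparib libraries lay below the vehicle libraries, as for 24.4% of all genes, while 24.9% of genes lay above them as CXCL1 did.

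Under the combination 4 of 6 members changed, against 18.7% of all genes. CXCL1, CXCL5 and CCL20 rose (11.1% of all genes did) and CXCL2 fell (7.61%). CXCL5 passed the filter on low counts only through treated libraries, so its call adds no support to these counts. The summed level of the 7 went from 166.3 ± 5.95 CPM (SD, n = 2) to 217.5 ± 12.4 CPM (SD, n = 2), with 226.3 CPM in combination replicate 1 and 208.8 CPM in replicate 2. CXCL1 stood at 141 and 122 CPM, above every other EGI-1 library, and rose by 0.79 on the log2 scale, 1.73-fold (SE 0.07, edgeR adjusted p = 9.09e-07). Without combination replicate 2 the log2 fold change was 0.90 (SE 0.08, adjusted p = 1.83e-06). Against decitabine, 2 of 6 members changed in the combination (7.68% of all genes), and CXCL1 was higher by 0.47 on the log2 scale (SE 0.07, edgeR adjusted p = 5.75e-04). Against talazoparib, CXCL1 was the 1 of 6 called (1.92% of all genes) and was higher by 0.36 (SE 0.07, edgeR adjusted p = 0.0142). Without combination replicate 2 these differences of CXCL1 were 0.58 (adjusted p = 5.62e-04) and 0.47 (adjusted p = 0.00867). The call of CXCL1 against talazoparib was lost without combination replicate 1 (adjusted p = 0.161) and without talazoparib replicate 1 or 2 (adjusted p = 0.164 and 0.0636). With CXCL1, CXCL2 and CXCL3 summed to 1 feature, the rise against vehicle was 0.48 and that against talazoparib was 0.27 with an adjusted p of 0.0653.

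CXCL2 stood at 25.4 and 23.2 CPM in the combination against 28.1 and 31.8 CPM under vehicle and fell by 0.30 on the log2 scale (SE 0.09, edgeR adjusted p = 0.0334). It fell by 0.35 against decitabine (SE 0.09, edgeR adjusted p = 0.0290). Both calls were lost without combination replicate 2, where the log2 differences were -0.24 (adjusted p = 0.231) and -0.29 (adjusted p = 0.220). The call of CXCL2 against vehicle was also lost without combination replicate 1 (adjusted p = 0.0525) and without vehicle replicate 1 or 2 (adjusted p = 0.0525 and 0.332), and by DESeq2 (adjusted p = 0.0576). The call against decitabine was also lost without combination replicate 1, decitabine replicate 1 or either vehicle library, with adjusted p-values of CXCL2 between 0.0517 and 0.124. CXCL3 stood at 15.1 and 11.4 CPM against 14.4 and 16.6 CPM, a log2 difference of -0.23 (SE 0.15, edgeR adjusted p = 0.320), and its groups overlapped. CXCL8 stood at 41.2 and 47.3 CPM against 42.06 and 43.99 CPM, a log2 difference of 0.04 with an interval from -0.15 to 0.24 (edgeR adjusted p = 0.802). The close paralogs CXCL1 and CXCL2 moved in opposite directions in these counts.

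CXCL5 was scarce in EGI-1, with 4 and 2 counts under vehicle, 9 and 14 under decitabine, 2 and 9 under talazoparib and 8 and 40 in the combination. Its log2 fold change in the combination was 2.98 (SE 0.74, edgeR adjusted p = 0.00905), and the ratio of the summed counts, scaled by TMM, was 8.45 with a counting interval from 3.61 to 24.2. The gene passed the filter on low counts only through treated libraries, since no vehicle library reached it. Its call therefore adds no support. The larger of the treated counts came from the library with lymphocyte transcripts, and without it the log2 difference was 1.62 (SE 0.96, adjusted p = 0.325). Without vehicle replicate 1 or 2 the adjusted p for CXCL5 was 0.0650 and 0.111. CCL20 stood at 3.003 and 3.896 CPM against 1.73 and 2.24 CPM under vehicle and rose by 0.81 on the log2 scale (SE 0.24, edgeR adjusted p = 0.0261). Without combination replicate 2 the log2 difference was 0.60 (SE 0.30, adjusted p = 0.234), and DESeq2 on all libraries gave an adjusted p of 0.0558. Without vehicle replicate 1 or 2 the adjusted p for CCL20 was 0.243 and 0.0633. In each of the 4 members called, the combination libraries lay on 1 side of the vehicle libraries. The same held for 28.6% of all genes in the upward direction and for 31.8% in the downward direction. CXCL1 was the 1 call of the 4 that remained under DESeq2 and without combination replicate 2, where 10.7% of genes were called. DESeq2 set no adjusted p for CXCL5. The 3 comparisons with vehicle share the vehicle libraries.

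**Figure D3:**
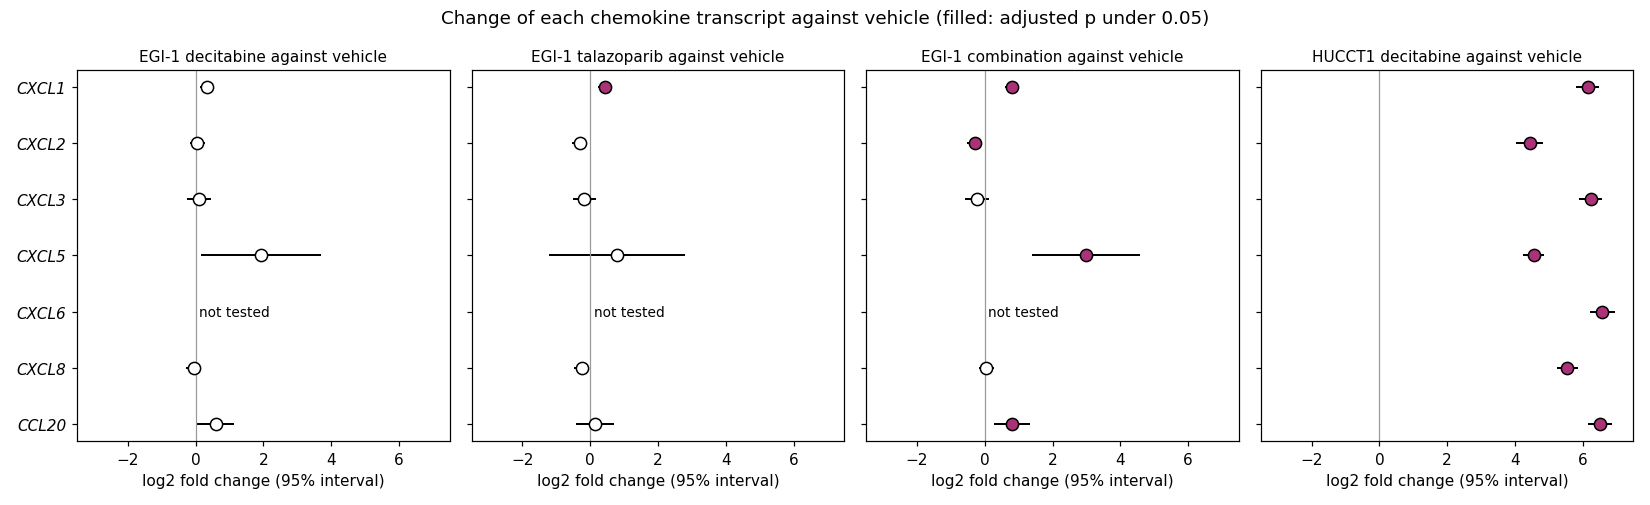
Log2 fold change of each transcript with its 95% interval (x axis) for 3 treatments of EGI-1 and 1 of HUCCT1, all against vehicle, on the same scale. Filled points passed an adjusted p under 0.05, and the HUCCT1 points lie between 4.44 and 6.58 while the EGI-1 points lie between -0.31 and 2.98.

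**Figure D4:**
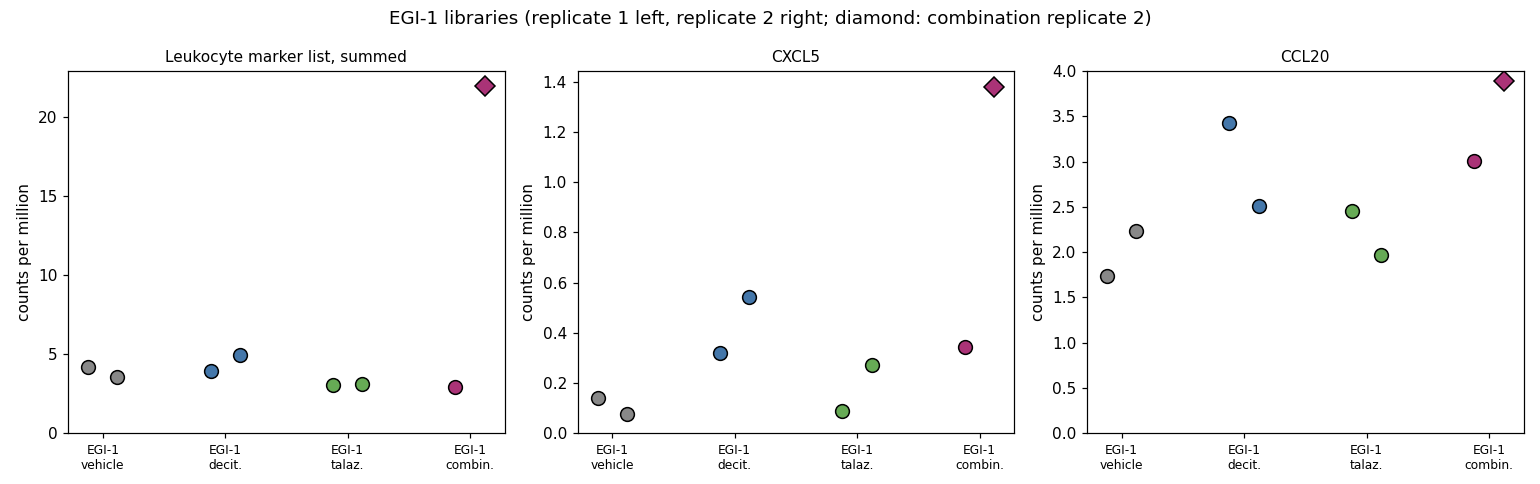
Summed level of 6 leukocyte markers, CXCL5 and CCL20 (CPM) in the 8 EGI-1 libraries. Combination replicate 2, drawn as a diamond, is highest in all 3 panels, at 22.0, 1.38 and 3.90 CPM.

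The EGI-1 libraries carry 2 series of names, lettered and numbered, each with 1 library of every arm. Within the numbered series the log2 ratio of combination to vehicle was 0.90 for CXCL1, -0.33 for CXCL2, 2.18 for CXCL5 and 0.43 for CCL20. Within the lettered series, which holds combination replicate 2, these ratios were 0.68, -0.28, 3.31 and 1.17. The combination and vehicle libraries of these 4 genes did not overlap. Their direction was therefore bound to be the same in both series, which adds no support. CXCL3 (-0.13 and -0.34) kept its sign between the series and CXCL8 (-0.09 and 0.17) changed it.

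The combination was also set against the sum of both single effects. None of the 6 members departed from it by edgeR, against 0.161% of all genes. CXCL1 differed from the sum by 0.04 on the log2 scale, with an interval from -0.18 to 0.27. For CXCL8 the difference was 0.36 (SE 0.13, unadjusted p = 0.0148, edgeR adjusted p = 0.9999). Leaving out combination replicate 2 gave 0.26 (SE 0.14, unadjusted p = 0.0894) for CXCL8 and 0.15 (SE 0.11) for CXCL1. DESeq2 also called 0 of the 6, and 44 of all 22406 genes. The interval for CXCL5, from -2.37 to 2.87, was too wide to tell a departure in either direction.

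Under vehicle, the lines differed in which chemokines they held. Of the 7 members, 6 differed between HUCCT1 vehicle and EGI-1 vehicle, against 55.8% of 25096 genes. Neither CXCL5 nor CXCL6 reached the filter on low counts in an EGI-1 vehicle library, so their calls add no support to this count. CXCL1, CXCL2, CXCL3 and CXCL8 were lower in HUCCT1, with log2 differences of -2.16 (SE 0.12), -1.21 (SE 0.17), -1.68 (SE 0.18) and -1.16 (SE 0.11), and edgeR adjusted p-values of at most 2.84e-05, as 27.3% of all genes were. CXCL5 was higher in HUCCT1, with 2062 counts against 6 and a TMM-scaled count ratio of 330.5 (interval from 152 to 902). CXCL6 had 84 counts in HUCCT1 vehicle and 0 in EGI-1 vehicle, at least 26.9-fold higher after TMM scaling at a floor of 3 counts over the group (28.5% of all genes were called higher). CCL20 did not pass the test (log2 difference -0.30, interval from -0.76 to 0.16, edgeR adjusted p = 0.259). Upper-quartile scaling moved the median of all genes in this comparison to -0.13 from -0.0084, and the 6 calls kept their direction.

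The decitabine effects of the lines were compared by an interaction term over all 12 libraries. Of the members, 5 had a larger effect in HUCCT1 (8.74% of all genes). The HUCCT1 effect exceeded that in EGI-1 by 5.84 on the log2 scale for CXCL1 (SE 0.16), 4.41 for CXCL2 (SE 0.23), 6.15 for CXCL3 (SE 0.23), 5.62 for CXCL8 (SE 0.15) and 5.94 for CCL20 (SE 0.28), with edgeR adjusted p-values of at most 1.76e-08. CXCL5 did not pass (difference 2.64, SE 1.43, edgeR adjusted p = 0.275), with few counts in EGI-1. It passed with no filter on low counts (2.57, adjusted p = 0.0248) and when either EGI-1 combination library was left out of the fit (adjusted p = 0.0323 and 0.0321). For CXCL6 no difference could be estimated, since both EGI-1 arms held 0 counts. Under decitabine, CXCL6 was at least 2565-fold higher in HUCCT1 than in EGI-1 at the same floor. After decitabine every member was higher in HUCCT1, although 4 of them had been lower under vehicle.

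The chromosome 4 cluster spans 358.7 kb from CXCL8 to CXCL2 and holds 18 annotated genes, 9 of them protein-coding. In HUCCT1, 9 of these 18 passed the filter on low counts, the 6 CXC members and 3 others, and were called higher under decitabine, as 19.6% of all genes were. The 3 others passed the filter only through the decitabine libraries, which favours genes that rose, so their calls add no support. They were PPBP (log2 4.22), the platelet basic protein, with 2 and 3 counts under vehicle and 55 and 45 under decitabine, PF4 (log2 1.65), platelet factor 4, with 9 and 20 against 55 and 39 counts, and the antisense neighbour of CXCL5 (log2 2.74). PF4V1, a copy of PF4, had too few counts to be tested. The neighbours outside the cluster, which passed the filter in every arm, are given for comparison. To the left, RASSF6, a Ras-association protein, rose by 0.88, ANKRD17 fell by 0.31, and COX18, a mitochondrial assembly factor, differed by 0.10 (edgeR adjusted p = 0.645). To the right, MTHFD2L, a mitochondrial folate enzyme, differed by 0.39, EPGN, an EGF family ligand, rose by 0.75, and EREG, another such ligand, fell by 0.85. In EGI-1 under the combination CXCL1 and CXCL5 were called higher, CXCL2 lower and, outside the cluster, RASSF6 higher (log2 0.66, edgeR adjusted p = 0.0219). With that arm reduced to combination replicate 1, CXCL1 was called, and CXCL2, CXCL5 and RASSF6 (log2 0.58, adjusted p = 0.140) were not.

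**Figure D5:**
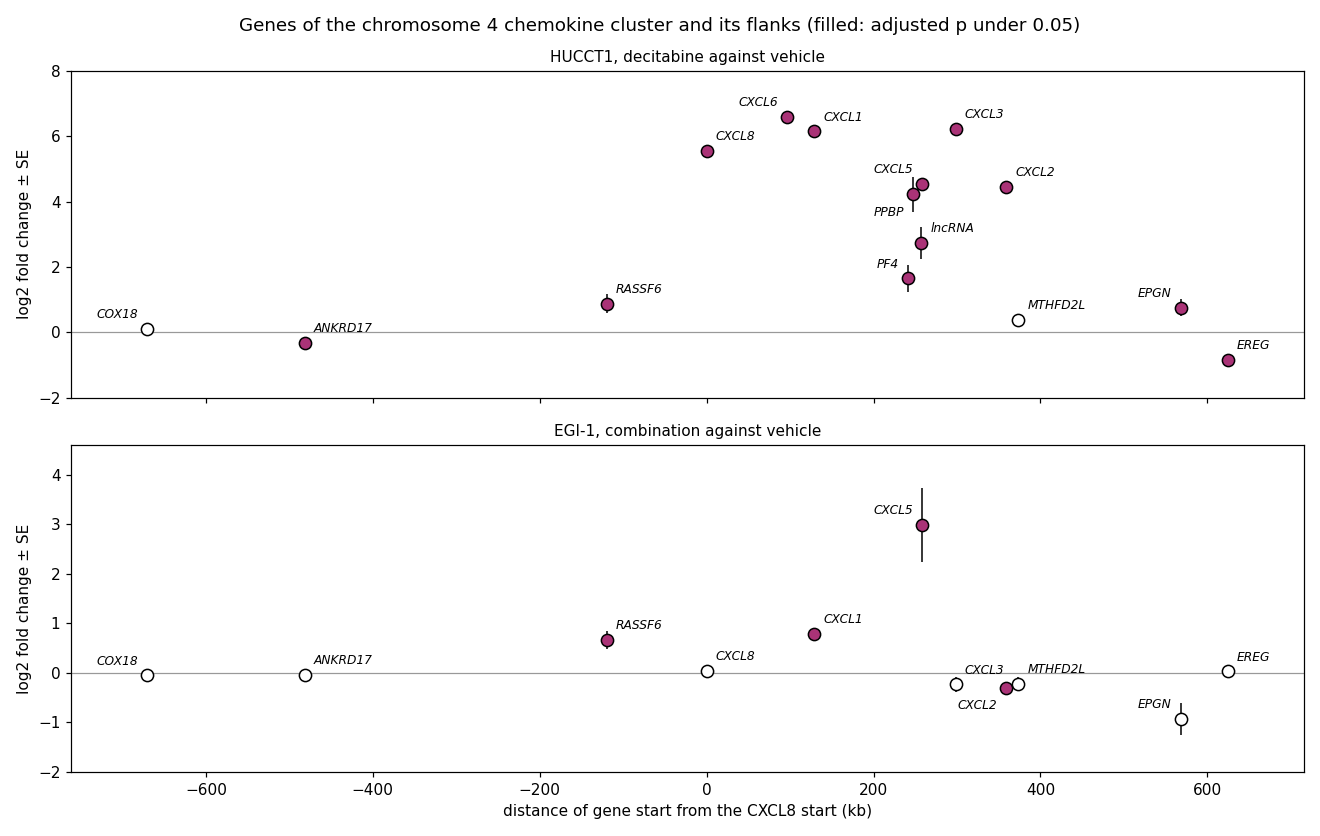
Log2 fold change (± SE) of the tested genes of the chromosome 4 cluster and 3 tested protein-coding neighbours on each side, by distance of the gene start from the CXCL8 start in kb. In HUCCT1 the 9 tested genes of the cluster lie between 1.65 and 6.58, and the 6 neighbours between -0.85 and 0.88.

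The receptors of these chemokines were near absent from the cultures. CXCR1, CXCR2, CCR6 and ACKR1, a receptor that binds chemokines without signalling, passed the filter in no fit. CXCR2, the receptor shared by all 6 CXC members, had at most 2 counts in any EGI-1 library, 0 in both HUCCT1 vehicle libraries and 8 and 13 under decitabine. CCR6, the receptor of CCL20, had 0 or 1 counts in every library.

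Genes upstream of the chemokines were read from a list of 50 that covers cytokines that induce them, their receptors, adaptors, transcription factors, NF-κB inhibitors and RNA-binding proteins that set mRNA stability, beside the chemokine receptors and other cluster genes. In HUCCT1, 41 were tested, 22 rose and 8 fell under decitabine, with a median log2 fold change of 0.51. Of all genes, 19.6% rose and 13.9% fell, with a median of 0.0020. Of the 41, PPBP, PF4 and IL36G passed the filter only through the decitabine libraries, so their calls add no support to these counts. The list was chosen with earlier results of these data known. Of 8 inducing cytokines listed, 4 were tested and rose, and the others had at most 3 counts in any HUCCT1 library. IL36G, 1 of the 4, had 10 and 1 counts under vehicle and 256 and 263 under decitabine. IL1A and IL1B, which encode both forms of interleukin-1, rose by 3.03 (SE 0.12) and 3.07 (SE 0.12) on the log2 scale. All 4 inhibitors of NF-κB signalling rose, among them TNFAIP3, a ubiquitin-editing enzyme, by 2.09 (SE 0.11). Of 7 RNA stability genes, 2 rose and 3 fell. ZC3H12A, an endonuclease that cuts inflammatory mRNAs, rose by 3.21 (SE 0.12), and ZFP36, which recruits the decay machinery to AU-rich elements, fell by 0.56 (SE 0.12). Of 13 transcription factors, 7 rose and 3 fell. The AP-1 subunit FOS fell by 1.55 (SE 0.11), FOSL1 by 0.82 (SE 0.11) and the early response factor EGR1 by 0.49 (SE 0.11). The edgeR adjusted p-values of these named genes were at most 9.45e-04.

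In EGI-1, decitabine alone called 1 of 38 tested genes of the list, higher (0.518% of all genes), and talazoparib called 6 higher (2.83%) and 2 lower (1.29%). The combination called 16 higher (11.1%) and 3 lower (7.61%), with a median log2 difference of 0.09 against -0.02 over all genes. Without combination replicate 2 it called 13 higher and 1 lower, where 10.7% of all genes were called in either direction. NFKB2, a subunit of the non-canonical NF-κB pathway, rose by 0.83 (SE 0.07), TNFAIP3 by 0.72 (SE 0.07), IL17RE, a receptor chain for interleukin-17C, by 0.94 (SE 0.11) and IL1R1, the interleukin-1 receptor, by 1.63 (SE 0.24) on the log2 scale. NFKBIA, which holds NF-κB in the cytoplasm, fell by 0.65 (SE 0.08). These 5 calls remained without that library, with edgeR adjusted p-values of at most 0.00184. HNRNPD, an AU-rich element binding protein, fell by 0.32 and ZC3H12A by 0.18, and neither was called without it (adjusted p = 0.138 and 0.286). ZC3H12A rose in HUCCT1 under decitabine and fell in EGI-1 under the combination, which are different treatments.

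Other chemokines followed in part. Of 31 listed, 7 were tested in HUCCT1 and called higher under decitabine, as 19.6% of all genes were. Of the 7, CX3CL1, CXCL17 and CCL22 passed the filter only through the decitabine libraries, so their calls add no support. CCL2, which attracts monocytes, rose by 5.26 (SE 0.15) and CXCL16 by 1.22 (SE 0.11), with edgeR adjusted p-values of at most 2.94e-09. CX3CL1, a membrane-bound chemokine, had 8 and 4 counts under vehicle and 77 and 92 under decitabine (log2 3.76, SE 0.40, edgeR adjusted p = 4.95e-08). In EGI-1, 4 were tested and 3 rose in the combination (11.1% of all genes did), CXCL16 by 0.31 (SE 0.07), CCL22 by 1.26 (SE 0.28) and CCL28, a mucosal epithelial chemokine, by 0.51 (SE 0.13). Without combination replicate 2, CXCL16 was called (adjusted p = 0.0117) and CCL22 (adjusted p = 0.0702) and CCL28 (adjusted p = 0.110) were not, while CX3CL1 was called in that fit (log2 1.55, adjusted p = 0.0260) and not with all libraries (log2 0.90, adjusted p = 0.215).

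Across the 8 EGI-1 libraries the members did not vary as 1 group. As a description over libraries that share 4 arms, Pearson's r of log2 CPM was -0.66 between CXCL1 and CXCL2, 0.64 between CXCL2 and CXCL3, 0.62 between CXCL1 and CXCL5 and 0.69 between CXCL5 and CCL20. The mean standardized profile of the 6 members measured in EGI-1 was set against the log2 CPM of 13703 candidates outside the 7. The most alike were PLEKHG4 (r = 0.96), ACER2 (r = 0.96), CHMP5 (r = 0.95), CHAC1 (r = 0.94) and RNF185 (r = 0.94). Their Spearman's rho was 0.79 to 0.81. They are the highest of all candidates over only 8 libraries, where unrelated genes can reach such values, so they are a description only.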

How the data were processed

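RNA was sequenced from 12 libraries, 2 in each of 6 arms. The authors deposited 1 table of raw counts per gene, with no normalization, for 60651 versioned Ensembl identifiers. The study's methods name fastp, STAR and RSEM, while the submitters' processing notes list fastp, Trim Galore, HISAT2 and featureCounts, and both name GRCh38. Strand use, multi-mapping reads and the annotation are not given in the sources used here, so counts of paralogs and of overlapping genes may mix. The names of the talazoparib libraries carry T50 where the labels give 200 nM. A symbol was found for 60437 identifiers and for 170 it was not, and 44 more were chromosome Y copies. No column of the table was left unused.

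Counts were tested with edgeR 4.0.16 (R 4.3.3) by its robust quasi-likelihood method, on genes kept by filterByExpr and libraries scaled by TMM. P-values were adjusted over all genes tested by the Benjamini-Hochberg method. The 8 EGI-1 libraries were fitted together (22406 genes), the 4 HUCCT1 libraries apart (22479 genes), and all 12 for comparisons between lines (25096 genes). A call is an adjusted p under 0.05, and counting intervals are exact at 95% and cover counting error only. Totals lay between 23139065 and 34965627, and the chi-square per gene between replicates (2.73 to 12.6) exceeded counting noise. Alternatives were DESeq2 1.42.0, other scalings, no filter, fewer libraries, a replicate block, summed paralogs and leaving out each library. The fit was checked on simulated data with known changes. For the EGI-1 combination it recovered 47 of 100 changes of 1.5-fold and 61 of 100 of 2-fold, with 12 false calls. For HUCCT1 decitabine it recovered 35 and 59 of 100, with 10 false calls. Changes of these sizes were thus often missed.

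All 7 members are named, the upstream and chemokine lists by smallest p, and genes of like profile by Pearson's r. The members and lists were chosen with earlier results of these data known. Leaving out the library with lymphocyte transcripts is a planned leave-one-out, while the 10 lymphocyte genes were chosen after seeing the data. Sequences are RefSeq promoters of GRCh38.p14, in which all 7 members were matched.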

Additional observations from a re-analysis of the deposited data

Results flagged for a closer look

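The decitabine effect differed between HUCCT1 (1 µM) and EGI-1 (0.5 µM) by the interaction term for 5 of the 7 chemokines. All 5 had the larger effect in HUCCT1, as 8.74% of all genes did. The difference, HUCCT1 minus EGI-1 on the log2 scale, was 5.84 for CXCL1 (SE 0.16, edgeR adjusted p = 8.02e-15) and 5.62 for CXCL8 (SE 0.15, edgeR adjusted p = 2.04e-16). It was 4.41 for CXCL2 (SE 0.23, edgeR adjusted p = 1.76e-08), 6.15 for CXCL3 (SE 0.23, edgeR adjusted p = 5.43e-11) and 5.94 for CCL20 (SE 0.28, edgeR adjusted p = 2.02e-12). Both decitabine libraries lay above both vehicle libraries in HUCCT1 for each of these genes, as for 33.9% of all genes tested. In EGI-1 the same was true for CXCL1 and CCL20, as for 20.2% of all genes, and the groups overlapped for CXCL2, CXCL3 and CXCL8. Cell line, dose and library name tag cannot be told apart in this difference.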

How the results depend on the processing

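All 7 calls of decitabine in HUCCT1 and all 6 calls between the vehicle arms kept their direction and their side of the threshold under every alternative run. The number of members called changed in EGI-1. For the combination against vehicle it was 4, and 1 by DESeq2. Against decitabine it was 2, and 1 with only the 4 libraries compared and 1 with the replicate block. Against talazoparib it was 1, 3 with no filter on low counts and 0 with the replicate block. For decitabine against vehicle it was 0, and 1 by DESeq2 and 1 with no filter. For talazoparib against vehicle it was 1, 2 with no filter and 3 with only the 4 libraries compared. In each of these settings the calls among all genes moved in the same direction as the members. With only the 4 libraries compared, they went from 923 to 1851 for talazoparib and from 1720 to 963 for the combination against decitabine. With no filter, they went from 431 to 897 for the combination against talazoparib. Whether the members changed beyond all genes was not tested. Leaving out 1 library gave 1 to 4 calls for the combination against vehicle, 1 to 2 against decitabine, 0 to 2 against talazoparib, 0 to 1 for decitabine and 0 to 2 for talazoparib. Leaving out combination replicate 2, vehicle replicate 1 or vehicle replicate 2 each left CXCL1 as the 1 member called for the combination against vehicle. The cause was not tested, and these fits also hold fewer libraries.

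Values that changed sign lay within their standard errors of 0 in the main fit, with 1 exception. CXCL5 in the combination against decitabine was 1.05 (SE 0.59) there, and -0.31 without combination replicate 2. With upper-quartile factors, CXCL2 in the combination against talazoparib was -0.010 in place of 0.008. Leaving out 1 library gave these log2 ranges. Against the summed single effects they were -0.13 to 0.32 for CCL20, -0.062 to 0.15 for CXCL1, -0.13 to 0.053 for CXCL2, -0.36 to 0.049 for CXCL3 and -1.10 to 1.36 for CXCL5. Against talazoparib they were -0.051 to 0.075 for CXCL2 and -0.26 to 0.15 for CXCL3, and against decitabine -0.31 to 1.69 for CXCL5. For the combination against vehicle the range was -0.060 to 0.14 for CXCL8. For talazoparib against vehicle they were -0.033 to 0.34 for CCL20 and -0.32 to 1.29 for CXCL5, and for decitabine against vehicle -0.042 to 0.14 for CXCL2 and -0.089 to 0.27 for CXCL3. Of 828 member values under alternatives, 404 that left out a library and 350 others kept their sign and their side of the threshold.

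The replicate numbers of the titles did not pair the EGI-1 libraries, and 1 pair of HUCCT1 libraries cannot settle it. Between EGI-1 arms, deviations of same-numbered libraries correlated at -0.27 to 0.20 over 13708 genes, and the single HUCCT1 pair at 0.29 over 13382 genes. With the replicate block, all-gene calls went from 7525 to 10136 in HUCCT1, from 4194 to 3516 for the combination against vehicle and from 122 to 60 for decitabine in EGI-1. With no filter on low counts, the latter count was 335, and with only the 4 libraries compared it was 43. With CXCL1, CXCL2 and CXCL3 summed, the combined rise was 5.73 in HUCCT1. Low counts limit CXCL5 and CXCL6 in EGI-1.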
